A study of Homo sapiens with 20 samples.

Results

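The regions described here are the RUNX1-bound sites that surrounded 10 chemokine genes: CXCL8, CXCL1, CXCL2 and CXCL3 on chromosome 4, and CXCL16, CCL2, CCL7, CCL5, CCL3 and CCL4 on chromosome 17. They were taken by position as every peak of the RUNX1 count table within 50 kb of the RefSeq span of one of these genes (GRCh38), which gave 16 of 26642 peaks. The rule itself used position and no measured value, but the 10 genes were chosen with earlier results of these data known. Of the 10 genes, 7 had a peak within 50 kb and 3, CXCL8, CXCL1 and CXCL3, had none. After PU.1 knockdown, 6 of the 16 peaks (37.5%) were called lost, against 20.7% of all peaks, and 3 (18.8%) gained, against 21.3%. Some of these calls did not hold when single libraries were left out, and the 16 had a higher median count and width than all peaks. The largest change was the loss of a peak on the lower-coordinate side of CCL2.

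Binding of RUNX1 was measured by chromatin immunoprecipitation with sequencing (ChIP-seq). The cells were THP-1, a human line established from an acute monocytic leukemia. They carried a short hairpin RNA (shRNA) inducible by doxycycline, aimed at PU.1 in the knockdown group and scrambled in the control group, and doxycycline was added in both. The 12 RUNX1 libraries of the count table fell into 2 experimental rounds, called batches, with 3 control and 2 knockdown libraries in batch 1, and in batch 2 again 3 control but 4 knockdown libraries. The other 8 of the 20 samples were IgG immunoprecipitations, which are not analysed here. Everything was measured in 1 cell line, and a ChIP library holds no transcript level, so neither the depth of the PU.1 knockdown nor monocytic markers could be checked. Fewer cells with RUNX1 at a site and less RUNX1 per cell cannot be told apart in these libraries.

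Chemokines are small secreted proteins that guide white blood cells through gradients, and they act on receptors that span the membrane of the target cell. Most of their genes lie in clusters that arose by gene duplication: CXC genes, whose products mainly attract neutrophils, on chromosome 4, and CC genes, whose products mainly attract monocytes and lymphocytes, on chromosome 17. Monocytes and macrophages are a major source of these proteins, and the NF-kappaB family switches many of the genes on during inflammation. PU.1 is the ETS-family factor that opens much of the regulatory DNA of myeloid cells, and RUNX1 is a Runt-family factor that often binds close to it. The comparison asks where RUNX1 stood on the DNA with and without normal PU.1 levels.

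The RefSeq promoter table (GRCh38.p14, from 250 bases before to 50 bases after a transcript start) held promoters of 6 of the 10 genes, and those of CXCL2 and CCL3 lay inside RUNX1 peaks over all of their 300 bases. The promoters of CXCL8, CXCL1, CXCL3 and CCL7 had 0 bases in a peak. The 4 CXC promoters and 1 of the 3 listed CCL3 promoters are shown because they set a cluster with a single bound start beside the start with the highest RUNX1 count of the 16 peaks. Capitals mark matches, on either strand, to the RUNX word TGNGGT, the ETS words GAGGAA and GGAAGT, the NF-kappaB words GGANTTTCC and GGGANTTCC, the AP-1 word TGANTCA and the C/EBP word TTGCNNAA. Each is written 5′ to 3′ along the strand of its gene.
CXCL8, chr4:73740319-73740618, plus strand: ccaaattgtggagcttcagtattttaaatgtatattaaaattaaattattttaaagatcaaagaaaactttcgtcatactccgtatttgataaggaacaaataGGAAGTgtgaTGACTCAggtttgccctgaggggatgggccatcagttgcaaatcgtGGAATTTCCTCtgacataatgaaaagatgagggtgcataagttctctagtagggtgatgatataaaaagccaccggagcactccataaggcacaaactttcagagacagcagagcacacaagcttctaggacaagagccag
CXCL1, chr4:73869143-73869442, plus strand: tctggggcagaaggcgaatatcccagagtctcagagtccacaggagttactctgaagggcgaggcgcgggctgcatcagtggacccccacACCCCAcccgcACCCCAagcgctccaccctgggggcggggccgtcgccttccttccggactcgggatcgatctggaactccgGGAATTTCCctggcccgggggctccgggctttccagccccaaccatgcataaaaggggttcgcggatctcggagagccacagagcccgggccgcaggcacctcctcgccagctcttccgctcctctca
CXCL3, chr4:74038640-74038939, minus strand: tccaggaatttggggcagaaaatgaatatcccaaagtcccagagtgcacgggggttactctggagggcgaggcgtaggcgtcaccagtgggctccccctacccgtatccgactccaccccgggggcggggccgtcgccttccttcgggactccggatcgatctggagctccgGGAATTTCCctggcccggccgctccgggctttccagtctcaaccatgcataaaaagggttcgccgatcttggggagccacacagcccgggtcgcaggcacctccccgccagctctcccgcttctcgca
CXCL2, chr4:74099146-74099445, minus strand: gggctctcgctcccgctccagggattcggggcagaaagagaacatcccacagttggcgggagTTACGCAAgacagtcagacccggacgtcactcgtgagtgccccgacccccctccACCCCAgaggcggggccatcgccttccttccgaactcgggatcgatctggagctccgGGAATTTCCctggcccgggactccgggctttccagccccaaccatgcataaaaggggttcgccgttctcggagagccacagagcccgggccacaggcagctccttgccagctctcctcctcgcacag
CCL3, chr17:36090094-36090393, minus strand: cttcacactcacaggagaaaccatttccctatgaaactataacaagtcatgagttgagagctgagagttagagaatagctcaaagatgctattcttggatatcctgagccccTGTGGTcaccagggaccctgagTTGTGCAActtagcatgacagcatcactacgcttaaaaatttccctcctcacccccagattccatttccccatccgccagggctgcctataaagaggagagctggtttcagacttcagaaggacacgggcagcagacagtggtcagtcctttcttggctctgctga

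All 4 CXC promoters carried the word GGAATTTCC, at 91 bases before the start in CXCL8, 78 in CXCL1, 78 in CXCL3 and 77 in CXCL2. An NF-kappaB word of this kind was found in 3.46% of the 35116 promoters of the table. In CXCL8 the word runs into the ETS word TTCCTC, so their capitals form 1 block. CXCL1, CXCL2 and CXCL3 are close relatives over this stretch, with 87.0% of aligned bases identical between CXCL1 and CXCL3, 83.6% between CXCL2 and CXCL3, and 83.5% between CXCL1 and CXCL2. A RUNX word, present in 43.2% of all promoters, occurred in CXCL2 (ACCCCA), CXCL1 (ACCCCA, at 2 places) and the CCL3 promoter shown (TGTGGT), and not in these windows of CXCL3 and CXCL8. CCL7, not printed, held TGTGGT and ACCTCA. The bound CXC promoter, that of CXCL2, shared its NF-kappaB word with the 3 promoters outside any peak. With CXCL1 it shared the match ACCCCA, which is TGGGGT on the other strand and fits only because N allows any base. TGTGGT, the form in CCL3 and CCL7, occurred in none of the 4 CXC promoters. These are matches of letters and not binding sites. The sequence of the peaks themselves was not read, since no genome of this build was used here.

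Within peaks, the control libraries held 630247 to 1199004 reads and the knockdown libraries 938745 to 1719840, so the knockdown libraries were the deeper ones on the whole. Counts were therefore divided by DESeq2 size factors, and these normalised read counts are given below. Changes are log2 fold changes of knockdown over control with their SE, from DESeq2 with batch in the model. Gained and lost are used for peaks with an adjusted p under 0.05, over all 26642 peaks, and a fold change over 1.1. The study describes cell line replicates, each immunoprecipitated and made into a library independently. Neither it nor the labels say that the libraries came from separate cultures, so p-values measure the spread between these libraries only. Counts over peaks carry counting error, and the peak set itself came from these libraries.

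Of the 16 peaks, 3 (18.8%) were called gained, against 21.3% of all peaks, and 6 (37.5%) were called lost, against 20.7% of all peaks. The other 7 were not called. The 16 had a median mean count of 39.8 and a median width of 1075.5 bp, against 31.2 and 889 bp over all peaks. The shares were not adjusted for this. The median log2 fold change of the 16 was 0.11, against -0.02 over all peaks, and the values ran from -1.63 to 0.80. By locus, 2 of the 3 peaks around CCL2 and CCL7 were lost and 1 was gained, 2 of the 3 around CXCL16 were lost, and among the 9 around CCL5, CCL3 and CCL4 there were 2 gained and 2 lost. The 1 peak of the chromosome 4 cluster was not called. Knockdown libraries lay under all control libraries of their own batch, in both batches, at 4 of the 16 peaks, against 13.9% of all peaks. They lay over them in the same sense at 1 peak, against 14.4% of all peaks.

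**Figure D1:**
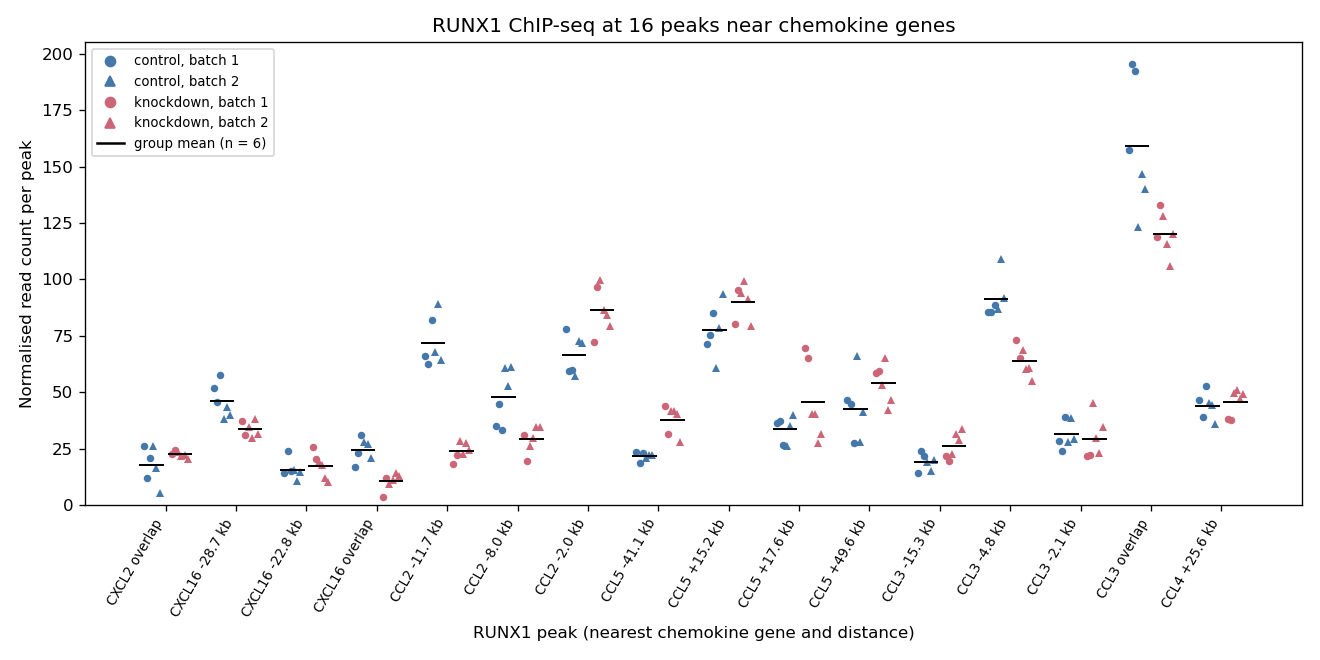
Normalised RUNX1 read count (y axis, reads per peak after division by size factors) in each of the 12 libraries at the 16 peaks (x axis, named by nearest gene and distance in kb, with a minus sign for lower coordinates). Circles are batch 1 and triangles batch 2, blue is control and red is knockdown, and black lines are means of 6 libraries. The groups stand apart at the peak 11.7 kb from CCL2, where control libraries lie between 62.4 and 89.1 and knockdown libraries between 18.3 and 28.5.

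CCL2 (chr17:34255285-34257203) encodes the main attractant of monocytes, which acts through the receptor CCR2, and CCL7 (chr17:34270221-34272242) encodes a related monocyte attractant. RUNX1 was found at 3 peaks here, all on the lower-coordinate side of CCL2 and outside any annotated gene, and their responses to the knockdown were not alike. With distance from CCL2 falling from 11.7 to 8.0 to 2.0 kb, the log2 fold changes were -1.63, -0.78 and 0.37.

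The outer peak (chr17:34242472-34243549) had control counts from 62.4 to 89.1, with a median of 67.0, and knockdown counts from 18.3 to 28.5, with a median of 23.3. No knockdown library came near a control library. The means were 71.9 ± 10.9 and 23.9 ± 3.73 (SD, n = 6 each), a 3.09-fold loss (log2 fold change -1.63 ± 0.18, DESeq2 adjusted p = 2.98e-18). Taken alone, batch 1 gave -1.76 ± 0.35 (DESeq2 adjusted p = 5.18e-05) and batch 2 gave -1.54 ± 0.24 (DESeq2 adjusted p = 2.2e-08). The loss was thus called in each round on its own.

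At the middle peak (chr17:34246360-34247285), control libraries ran from 33.4 to 61.1 around a median of 48.7 and knockdown libraries from 19.8 to 34.5 around a median of 30.4. The ranges overlapped slightly when all libraries were pooled, but within each batch the knockdown libraries were the lower ones. Mean counts were 48.0 ± 12.2 in control and 29.3 ± 5.61 in knockdown (SD, n = 6 each), a 1.72-fold loss (-0.78 ± 0.18, DESeq2 adjusted p = 0.000116). The log2 fold change was -0.58 ± 0.40 in batch 1 and -0.89 ± 0.24 in batch 2.

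The inner peak (chr17:34251766-34253326), the one nearest to both CCL2 and CCL7 and 1561 bp wide, moved the other way. Control counts were between 57.2 and 78.0, with a median of 65.8, and knockdown counts between 72.1 and 99.8, with a median of 85.3. Some libraries of the groups overlapped. The rise from 66.5 ± 8.64 to 86.4 ± 10.5 (SD, n = 6 each) was 1.29-fold (0.37 ± 0.14, DESeq2 adjusted p = 0.0205). It was 0.39 ± 0.28 in batch 1 and 0.35 ± 0.19 in batch 2, and neither batch alone called it. The call over all libraries was lost without control replicate 2 (adjusted p = 0.052), without control replicate 4 (0.0692) and without knockdown replicate 2 (0.127).

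Set against each other within a library, the inner and outer peaks had similar counts in control cells and unlike counts in knockdown cells. The ratio of inner to outer count was 0.940 ± 0.176 in control (SD, n = 6, range 0.732 to 1.18) and 3.66 ± 0.467 in knockdown (n = 6, range 3.07 to 4.32), with no overlap. It was formed after the values of its parts were seen and is given as a description. Summed over the 3 peaks, the locus held 186 ± 17.2 normalised reads in control and 139.6 ± 10.9 in knockdown libraries.

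**Figure D2:**
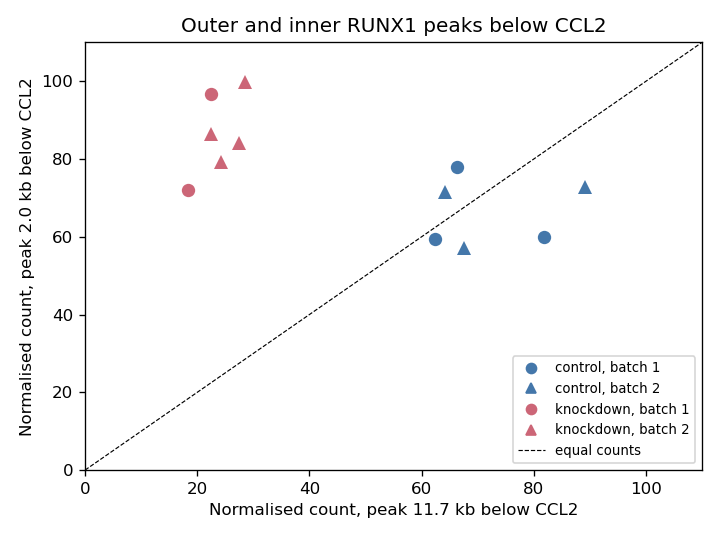
Normalised read count of the inner peak, 2.0 kb from CCL2 (y axis), against that of the outer peak, 11.7 kb from CCL2 (x axis), with 1 point per library and a dashed line of equal counts. Control libraries (blue) scatter around the line, with ratios from 0.732 to 1.18, and knockdown libraries (red) lie at ratios from 3.07 to 4.32, for circles (batch 1) and triangles (batch 2) alike.

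CCL3 (chr17:36088256-36090143) encodes a macrophage inflammatory protein that attracts monocytes and macrophages, and CCL4 (chr17:36103827-36105614) encodes its neighbour in function and position. The strongest RUNX1 signal of the 16 peaks was at the start of CCL3. Of the 5 peaks within 50 kb of both genes, 2 were lost and 3 were not called, and both losses lay within 4.8 kb of CCL3.

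The peak over the CCL3 start (chr17:36089523-36090992), which also overlaps the long non-coding gene CCL3-AS1 and holds the CCL3 promoter printed above, stood at percentile 98.0 of all peaks by mean count. Its control counts ran from 123 to 195, with a median of 152, and its knockdown counts from 106 to 133, with a median of 119. The highest knockdown libraries reached into the control range. The means were 159 ± 29.1 and 120.3 ± 9.58 (SD, n = 6 each), a 1.29-fold loss (-0.37 ± 0.11, DESeq2 adjusted p = 0.00191), and the site was still well bound after the knockdown. Per kb of peak, this was 108 normalised reads in control and 81.8 in knockdown libraries. The log2 fold change was -0.52 ± 0.21 in batch 1 and -0.24 ± 0.15 in batch 2. This is also the peak nearest to CCL4, 12.8 kb away.

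A further peak 4.8 kb from CCL3 (chr17:36082265-36083470), inside CCL3-AS1, fell in every knockdown library relative to every control library. Control counts were 85.6 to 109, with a median of 87.7, and knockdown counts 55.0 to 73.1, with a median of 62.9. From 91.2 ± 9.0 to 63.8 ± 6.56 (SD, n = 6 each), the loss was 1.44-fold (-0.52 ± 0.13, DESeq2 adjusted p = 0.000344). It measured -0.32 ± 0.26 in batch 1 and -0.66 ± 0.19 in batch 2. Between these 2 lost peaks lay a weaker one, 2.1 kb from CCL3 (chr17:36085526-36086181), where control (24.2 to 39.2) and knockdown libraries (21.9 to 45.1) overlapped and no change was called (-0.19 ± 0.22, DESeq2 adjusted p = 0.514).

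Away from the CCL3 start the values had the opposite sign or were near 0. The peak 15.3 kb from CCL3 (chr17:36072387-36072930), which lies 355 bp from the annotated end of CCL18, another CC chemokine gene, had means of 19.1 ± 3.81 in control and 26.4 ± 5.72 in knockdown (SD, n = 6 each, 0.41 ± 0.24, DESeq2 adjusted p = 0.163). At the peak 25.6 kb on the far side of CCL4 (chr17:36131253-36131984), control libraries averaged 44.1 ± 6.02 and knockdown libraries 45.5 ± 6.01 (SD, n = 6 each). Its log2 fold change was 0.02, with a 95% interval of -0.31 to 0.36, so no change was detectable there at this depth.

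CCL5 (chr17:35871491-35880360) encodes an attractant of T cells and monocytes. It had 4 peaks within 50 kb and none within 10 kb. All 4 had positive log2 fold changes, from 0.20 to 0.80, and 2 of them were called gained. Beyond the 50 kb limit, a peak 60.6 kb from CCL5 (chr17:35808694-35810876) was lost (-0.48 ± 0.13, DESeq2 adjusted p = 0.000765). It is quoted after its value was seen. The peaks 58.7 and 92.6 kb from CCL5 had positive values (0.16 and 0.32) and were not called. Not every sign around this gene was thus positive.

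The clearer gain was 41.1 kb from CCL5 (chr17:35829347-35830419), inside TAF15, which encodes an RNA-binding protein. Control libraries ran from 18.6 to 23.4, with a median of 22.2, and knockdown libraries from 28.0 to 43.8, with a median of 40.9. Every knockdown library was above every control library. The means were 21.7 ± 1.76 and 37.8 ± 6.42 (SD, n = 6 each), a 1.74-fold gain (0.80 ± 0.21, DESeq2 adjusted p = 0.000865), with 0.81 ± 0.41 in batch 1 and 0.80 ± 0.31 in batch 2.

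On the other side of CCL5, 2 peaks lay close together, 15.2 and 17.6 kb from the gene. The nearer (chr17:35895523-35896776) was among the well-covered peaks, at percentile 91.2 by mean count, with control counts of 60.7 to 93.7 and knockdown counts of 79.2 to 99.1. Its change was not called (0.20, 95% interval -0.06 to 0.45, DESeq2 adjusted p = 0.222). The farther (chr17:35898009-35899298) had control counts of 26.0 to 40.0, with a median of 35.8, and knockdown counts of 27.4 to 69.4, with a median of 40.3. The 2 knockdown libraries of batch 1, at 69.4 and 65.2, were the high ones, and those of batch 2, at 27.4 to 40.4, lay among the controls. It was called gained over all libraries (0.48 ± 0.21, DESeq2 adjusted p = 0.0485), but the log2 fold change was 1.02 ± 0.33 in batch 1 and 0.01 ± 0.28 in batch 2. Its call depended on single libraries and was lost without control replicates 1, 2, 3 or 4 or knockdown replicates 1, 2, 3 or 4, each left out in turn, with adjusted p-values from 0.0645 to 0.198.

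The farthest peak taken in by the 50 kb rule lay 49.6 kb from CCL5 (chr17:35929984-35931758), over an annotated end of RDM1. Control counts were 27.7 to 65.9 and knockdown counts 42.1 to 65.4, which gave 0.39 ± 0.19 on the log2 scale (not called, DESeq2 adjusted p = 0.0822). It was called by edgeR (adjusted p = 0.0327) and without control replicate 4 (DESeq2 adjusted p = 0.0117). The nearest peak left out by the rule was 51.5 kb from CCL3 (chr17:36036046-36036769), with control and knockdown means of 59.0 ± 10.5 and 25.6 ± 5.94 and a log2 fold change of -1.21.

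**Figure D3:**
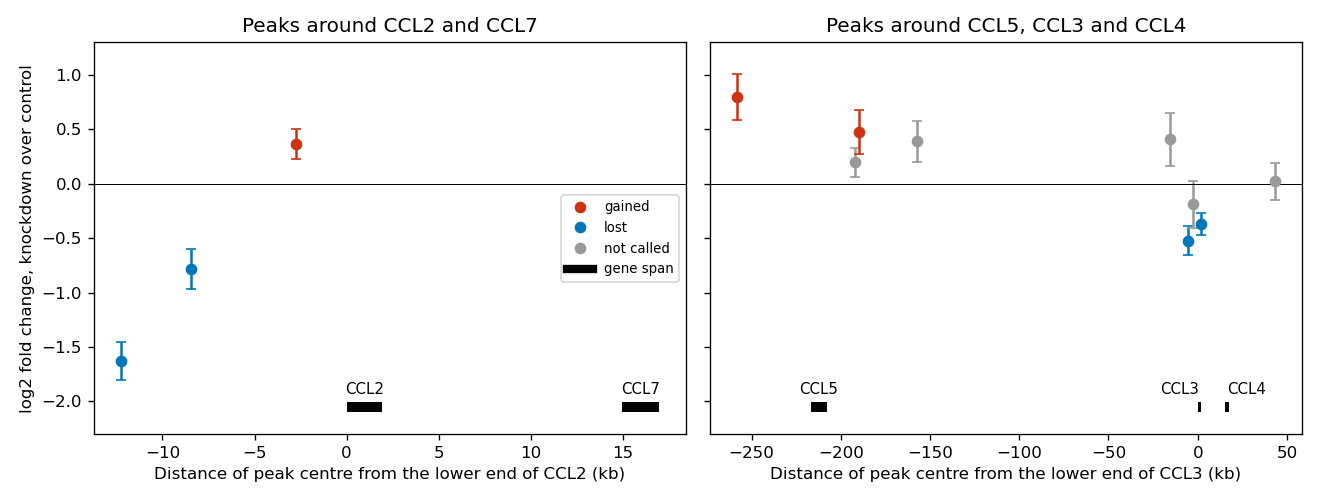
Log2 fold change of RUNX1 signal, knockdown over control (y axis, points with SE from DESeq2), against the distance of the peak centre from the lower end of CCL2 (left) or CCL3 (right) in kb. Red is gained, blue is lost, grey is not called, and black bars are gene spans. At CCL2 the values go from -1.63 at the outer peak to 0.37 at the inner one, and on the right they lie between -0.52 and 0.80. Peaks beyond 50 kb of a gene are not drawn, among them lost ones 60.6 kb from CCL5 (-0.48) and 51.5 kb from CCL3 (-1.21). Uncalled ones 58.7 and 92.6 kb from CCL5 (0.16 and 0.32) are not drawn either.

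CXCL16 (chr17:4733533-4739928) lies apart from the clusters and encodes a chemokine that is made as a membrane protein, binds CXCR6 and also acts as a scavenger receptor for oxidised lipoprotein. A peak overlapped its lower end (chr17:4733211-4733797) and also the end of MED11, a Mediator subunit gene. The MED11 promoter had 0 bases in a peak and no CXCL16 promoter was listed, so this peak was not shown to lie at a gene start. Control counts there were 16.9 to 31.1, with a median of 25.1, and knockdown counts 3.65 to 14.0, with a median of 11.5. Raw reads were few, 13 to 27 in control and 4 to 22 in knockdown libraries. All knockdown libraries were under all control libraries. From 24.5 ± 5.13 to 10.6 ± 3.72 (SD, n = 6 each), it lost 2.36-fold (-1.24 ± 0.28, DESeq2 adjusted p = 6.34e-05), with -1.55 ± 0.59 in batch 1 and -1.05 ± 0.37 in batch 2. After the CCL2 outer peak this was the largest loss by log2 fold change among the other 15.

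Another 2 peaks within 50 kb of CXCL16 sat on the promoters of other genes. The peak over the promoters of PELP1 and PELP1-DT (chr17:4703539-4704823, 28.7 kb from CXCL16) had control counts of 38.2 to 57.6 and knockdown counts of 29.7 to 38.2, with means of 46.1 ± 7.41 and 33.7 ± 3.54 (SD, n = 6 each). It was called lost (-0.42 ± 0.18, DESeq2 adjusted p = 0.0417), but leaving out 1 library at a time ended the call for control replicates 1, 3, 5 and 6 and knockdown replicates 1, 2, 4 and 6, with adjusted p-values from 0.0569 to 0.184. The peak over the ARRB2 promoter (chr17:4710006-4710730, 22.8 kb away; ARRB2 encodes a beta-arrestin, which takes chemokine receptors off the cell surface) was not called. Its means were 15.7 ± 4.52 and 17.5 ± 5.61 (SD, n = 6 each, 0.22 ± 0.28, DESeq2 adjusted p = 0.55).

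The chromosome 4 cluster was nearly free of RUNX1 peaks. CXCL8 (chr4:73740569-73743716) encodes interleukin 8, and CXCL1 (chr4:73869393-73871308), CXCL2 (chr4:74097040-74099195) and CXCL3 (chr4:74036589-74038689) encode the GRO chemokines, all of which attract neutrophils through CXCR2. The table held a single peak within 50 kb of these 4 genes, over the start of CXCL2 (chr4:74098817-74099787). The nearest peak was 141 kb from CXCL8, 228 kb from CXCL1 and 60.1 kb from CXCL3. Between the CXCL2 peak and the next peak on the lower-coordinate side (chr4:73598834-73599595) lay 499 kb without a peak, which held 8 protein-coding genes, all of them chemokine genes: CXCL8, CXCL6, PF4V1, CXCL1, PF4, PPBP, CXCL5 and CXCL3. Of the 26618 gaps between neighbouring peaks in the genome, 3.99% were at least as long, and the median gap was 35.2 kb. This share counts every gap once. The gap here was picked because CXCL8 lies in it, and a long gap takes in more of the genome than a short one. The share therefore does not say how rare such a place is. The table lists only peaks that passed the authors' calling in these cells, so weaker binding in the gap could not be measured.

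At the CXCL2 peak the reads were few: 20, 13, 18, 15, 14 and 5 raw reads in control replicates 1 to 6, and 25, 37, 20, 33, 35 and 22 in knockdown replicates 1 to 6. In normalised counts the control libraries spread from 5.27 to 26.0 and the knockdown libraries from 20.5 to 24.4, so the knockdown values lay inside the control range. Means of 17.8 ± 8.18 and 22.6 ± 1.39 (SD, n = 6 each) gave a log2 fold change of 0.45 with a 95% interval of -0.08 to 0.97, and no change was called (adjusted p = 0.176 in DESeq2).

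The batches, fitted separately, called 2 of the 16 peaks in batch 1, against 12% of all peaks, and 5 of the 16 in batch 2, against 25.8% of all peaks. Batch 1 called the outer CCL2 peak and that 17.6 kb from CCL5. Batch 2 called the outer and middle CCL2 peaks and those 4.8 kb from CCL3, 41.1 kb from CCL5 and over CXCL16. The inner CCL2 peak, the CCL3 start and the peak 28.7 kb from CXCL16 were called in neither batch alone. The sign was the same in both batches at 14 of the 16 peaks, and at 21307 of all 26642. A test of the difference between batches (the batch by knockdown term in DESeq2) passed an adjusted p of 0.05 at 0 of the 16 peaks, as it did by edgeR. In DESeq2 it also passed at 0 of all 26642 peaks, so this count says nothing particular about the 16. Without adjustment, 1 peak was under 0.05 in DESeq2, against 2.51% of all peaks, and it was the peak 17.6 kb from CCL5 (unadjusted DESeq2 p of 0.0105). By edgeR 1 peak also had an unadjusted p under 0.05.

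**Figure D4:**
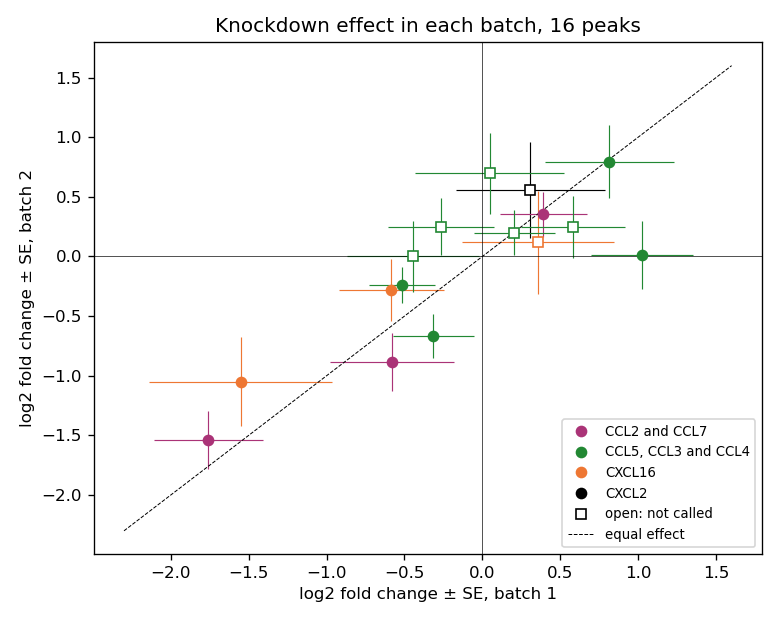
Log2 fold change of each of the 16 peaks in batch 2 (y axis) against batch 1 (x axis), with SE from DESeq2, coloured by locus, with open squares for peaks that were not called over all libraries. The dashed line marks equal effects. The outer CCL2 peak lies near the line at -1.76 and -1.54, and the peak 17.6 kb from CCL5 lies off it at 1.02 and 0.01.

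The near-identical copies of CCL3 and CCL4 on chromosome 17, CCL3L3 and CCL4L2, offered a side-by-side view, chosen after their values were seen. CCL3L3 also had a peak over the gene and others on its lower-coordinate side, at 1.8 and 5.1 kb, where CCL3 had them at 2.1 and 4.8 kb. The log2 fold changes were -0.72 ± 0.12 at 5.1 kb from CCL3L3 (called lost) and -0.52 at 4.8 kb from CCL3. At 1.8 kb from CCL3L3 and 2.1 kb from CCL3 they were 0.02 and -0.19, with no call at either. Over the gene they were -0.16 for CCL3L3 (not called) and -0.37 for CCL3 (called lost). For CCL4L2 a peak over the gene was lost (-0.99 ± 0.18), whereas CCL4 had no peak within 10 kb. Reads from such copies can be placed on either, and these differences were not tested, so the split of signal between them is uncertain.

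Around 38 other chemokine genes, 47 further peaks lay within 50 kb of 28 of the genes, and 7 were gained (14.9%) and 13 lost (27.7%), with a median log2 fold change of -0.09. The uncalled peak chr17:215742-216461 was counted for the listed place of CCL3L1. That place is far from the peak over CCL3L3 (chr17:36196137-36197988), so this peak may not belong to the set. The genes quoted here were picked after their values were seen. The largest gain was inside CCL17, a T cell attractant, where the count went from 4.40 ± 2.42 to 20.7 ± 4.41 (2.28 on the log2 scale, SD over 6 libraries each). CCL17 also had lost peaks, 1 over the gene, from 29.4 ± 9.17 to 18.9 ± 5.03 (-0.61), and 1 at 30.9 kb (-0.72). A peak over CCL22, which shares its receptor with CCL17, fell from 29.1 ± 4.91 to 15.8 ± 4.77 (-0.83). Chemokine receptor genes had 52 peaks around 20 of 23 genes, of which 14 were gained and 14 lost (26.9% each, median 0.06). Peaks around 10 genes of NF-kappaB factors and their inhibitors numbered 45. Of these, 4 were gained (8.89%) and 9 lost (20%), and the median log2 fold change was -0.13. Over all peaks, 21.3% were gained and 20.7% lost. The shares of these lists were not tested against those of all peaks.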

How the data were processed

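RUNX1 ChIP-seq was measured in 12 libraries of THP-1 cells, 6 control and 6 PU.1 knockdown. The members and gene lists were chosen with earlier results of these data known. As the methods of the study describe, bowtie2 alignments were freed of duplicates and of non-primary chromosomes, macs2 peaks were called for each condition and batch, peaks reproducible between batches were merged, and featureCounts gave the reads in each. The authors deposited these as raw counts per peak and library, not normalised, with the peak width in bp. The sources name a mouse and a human build. The coordinates were taken as GRCh38, since 24.4% of the peaks came within 1 kb of where a protein-coding gene begins or ends and 5.48% to 7.58% did after shifts along the chromosome.

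From the counts as deposited, DESeq2 1.42.0 (R 4.3.3) was run over all 26642 peaks with batch as a covariate, and called at an adjusted p under 0.05 and a fold change over 1.1, as the study's methods give. Intervals are 95% Wald intervals. Distances run from peak edge to the RefSeq gene span. Every peak taken in by the 50 kb rule is named, called or not. Of the peaks outside it, some are named for their position. Others are said to be chosen after their values were seen. Alternatives were edgeR 4.0.16, TMM or total-count scaling, no batch term, a replicate block, a minimum mean raw count of 10, an adjusted p under 0.01, a fold change over 2, centring on the peaks of the surrounding 10 Mb, windows of 10 and 100 kb, and leaving out each library. In counts simulated for this comparison, with 200 of 26642 peaks changed by 1 on the log2 scale, DESeq2 recovered 134 and edgeR 136, with 4 and 6 false calls. The simulated counts held no batch difference and far fewer changed peaks than the 11185 called in the data. The recovery is therefore a check of the code and not a measure of sensitivity here. Same-numbered libraries did not deviate together (correlations of -0.0643 to 0.0144), so numbers were not taken as pairs. Counts of libraries within a group differed by more than sampling noise (chi-square per degree of freedom 1.29 to 2.24 over 30 pairs), so none was treated as a duplicate. Depth was 630247 to 1719840 reads within peaks per library; totals of mapped reads were not used here.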

Additional observations from a re-analysis of the deposited data

Results flagged for a closer look

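Among the 16 peaks, each with 6 control and 6 knockdown libraries, Dixon's criterion at the 95% level was applied to 32 groups. It marked 2 single libraries as standing apart, where chance alone would give about 1.6. At the peak over the ARRB2 promoter, 22.8 kb from CXCL16, control replicate 2 had a normalised count of 24.2, and the other control libraries lay at 10.6 to 15.6. At the lost peak 4.8 kb from CCL3, control replicate 5 had a normalised count of 109.0, where the rest of the controls had 85.6 to 91.6. The call at that peak was kept under all 19 alternatives run at the main cutoffs, the one without that library included. Its loss of 1.44-fold would not pass a fold change over 2.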

How the results depend on the processing

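For each of the 16 peaks 19 alternatives were run at the main cutoffs, leaving out the stricter cutoffs and the other windows. Over these, 274 of 304 values kept their direction and side of the threshold, 26 lost a call, 2 gained one and 2 changed sign. The 9 called peaks kept their direction throughout. The peaks called in all 19 were the outer and middle CCL2 peaks, the peak 4.8 kb from CCL3, the peak over CXCL16 and the peak 41.1 kb from CCL5. Calls at the other 4 were kept in 18 (CCL3 start), 15 (inner CCL2 peak), 9 (28.7 kb from CXCL16) and 8 (17.6 kb from CCL5). Centring on the surrounding 10 Mb ended only the last (adjusted p = 0.0625). The uncalled peak 25.6 kb from CCL4 had a log2 fold change of 0.0249, which ran from -0.0716 (without control replicate 6) to 0.0938 (without knockdown replicate 2) and was -0.00049 without knockdown replicate 4.

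Calls over all peaks numbered 11185, and 4545 at a fold change over 2. Of the 3 gained peaks, 1 was left at an adjusted p under 0.01, 0 at a fold change over 2 and 1 of 7 peaks in a 10 kb window (3 of 26 in a 100 kb window), and leaving out 1 library gave 1 to 3. Of the 6 lost peaks, 2 were left at a fold change over 2, 4 of 7 peaks were lost in a 10 kb window and 9 of 26 in a 100 kb window, and leaving out 1 library gave 5 to 6. Batch 1 alone called 2 peaks by DESeq2, 5 by edgeR, and 1 to 3 with 1 library left out, where a lone knockdown library was assumed to vary like the controls. Batch 2 alone called 5, and 2 to 5 with 1 library left out.

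Since same-numbered libraries did not deviate together, a fit with the replicate number as a block is given only here: it called 7289 peaks in all, and 1 gained and 4 lost among the 16. Raw reads per peak were few at CXCL2 (5 to 37), over CXCL16 (4 to 27) and over the ARRB2 promoter (9 to 31). This limits what could be seen at these peaks. The causes of these changes were not tested.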
